A study of Mus musculus with 4 samples.

Results

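The genes described here are the repressors of the circadian clock and genes that the clock drives directly. They were chosen by symbol from the probed features: Per1, Per2, Per3, Cry1, Cry2, Dbp, Tef, Nr1d1, Nr1d2 and Ciart. Of these 10 symbols, 9 had a feature among the 19465 probed, and Ciart was not analysed here. The tissue was the brain of wild-type male C57BL/6J offspring on postnatal day 21. Their mothers ate a diet with 2 mg/kg folic acid (FA) in the MF group, the control, or 20 mg/kg FA in the HF group, from before mating until the pups were taken. Coronal FFPE sections were read with Visium, which counts unique molecular identifiers (UMIs) of probe pairs in barcoded spots, and each spot holds several neighbouring cells. There were 2 MF and 2 HF sections with 34983708 to 90098381 UMIs each, MF replicate 1 being the deepest and HF replicate 1 the shallowest. Levels are given as CPM, the UMIs of a gene per 1000000 UMIs of the section or area. They were compared between sections or areas and never between genes, whose probe pairs differ. The sections were numbered in the labels, which do not say whether the pups came from separate litters. The p-values of HF against MF thus measure the spread between these 4 sections. Those between areas and of area-by-diet terms rest on the spread of area sums left once section differences are removed. The labels and the methods give a 12-h light/dark cycle but no time of day for the harvest, so time of day and diet cannot be told apart in any value below.

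In the clock, CLOCK or NPAS2 pairs with BMAL1, the product of Arntl, binds E-boxes and switches on Per, Cry, Nr1d1, Nr1d2, Dbp and Tef. PER and CRY proteins then enter the nucleus and block that pair, while NR1D1 and NR1D2 (REV-ERB alpha and beta) repress Arntl and Npas2 and the PAR bZIP factors DBP and TEF act on D-boxes of output genes. Most of these transcripts rise and fall once a day in nearly every tissue, with Nr1d1 early, Dbp, Tef, Per3 and Nr1d2 next, Per1 and Per2 later, Cry1 later still and Arntl, Npas2 and Clock at the opposite phase. Per1 and Per2 can also be switched on within an hour by light, neuronal firing or hormones, through CREB sites and other elements.

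Promoter sequences are shown for Per1 and Nr1d1, which rose together in layers of cortex below. They are also shown for Cry1, which lay lower in HF over the whole section, and for Per3, which overlapped between the diets there. In layers 2-3, Cry1 overlapped between the diets as well. Promoters were chosen because they hold elements that tie such genes to the clock. RefSeq (GRCm38.p6) gave a window for 8 of the 9 genes, with 2 start sites each for Per1 and Tef, and the name Per2 had no entry. Each line is the 250 bases before the start site in the gene's own direction. Capitals mark any of 4 motifs, which were searched on both strands. The E-box was spelled CACGTG. The weaker E-box, called E′-box below, was spelled CACGTT, whose other strand is shown for Nr1d1. The D-box was spelled TTATGTAA, and the core of a CREB site was spelled TGACGT.
Per1, first start, chr11:69098699-69098948, plus strand: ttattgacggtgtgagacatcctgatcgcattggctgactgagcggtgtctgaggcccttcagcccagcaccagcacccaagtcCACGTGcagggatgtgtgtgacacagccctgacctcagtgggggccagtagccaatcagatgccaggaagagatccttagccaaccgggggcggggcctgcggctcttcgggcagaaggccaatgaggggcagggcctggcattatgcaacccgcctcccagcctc
Per1, second start, chr11:69099902-69100151, plus strand: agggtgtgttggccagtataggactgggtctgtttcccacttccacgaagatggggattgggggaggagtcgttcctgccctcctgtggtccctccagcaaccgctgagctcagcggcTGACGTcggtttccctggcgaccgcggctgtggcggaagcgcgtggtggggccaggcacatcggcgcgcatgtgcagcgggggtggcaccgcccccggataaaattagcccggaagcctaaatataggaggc
Nr1d1, chr11:98775378-98775627, minus strand: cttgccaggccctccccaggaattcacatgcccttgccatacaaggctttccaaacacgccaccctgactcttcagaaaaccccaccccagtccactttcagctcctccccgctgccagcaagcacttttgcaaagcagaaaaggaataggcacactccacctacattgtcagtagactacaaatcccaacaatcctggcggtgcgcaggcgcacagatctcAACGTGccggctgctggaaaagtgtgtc
Cry1, chr10:85185055-85185304, minus strand: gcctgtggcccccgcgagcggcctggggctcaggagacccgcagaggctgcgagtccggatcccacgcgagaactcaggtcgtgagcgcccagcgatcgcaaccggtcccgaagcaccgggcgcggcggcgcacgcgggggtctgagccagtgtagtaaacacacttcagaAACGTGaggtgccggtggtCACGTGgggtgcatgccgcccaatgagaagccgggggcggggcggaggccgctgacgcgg
Per3, chr4:151044666-151044915, minus strand: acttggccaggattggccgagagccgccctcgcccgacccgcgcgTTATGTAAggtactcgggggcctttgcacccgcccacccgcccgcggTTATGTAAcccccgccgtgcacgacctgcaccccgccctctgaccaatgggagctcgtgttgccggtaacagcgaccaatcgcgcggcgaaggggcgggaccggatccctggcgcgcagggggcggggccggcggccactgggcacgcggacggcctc

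An E-box stood in the windows of 3 of the 8 genes, 166 bases before the first start of Per1, 60 bases before that of Cry1 and in both windows of Tef. The first Tef window lay wholly within an annotated exon. Of all 32851 promoter windows, 6.02% held an E-box. The E′-box was found for Cry1, Cry2 and Nr1d1, against 3.85% of all windows. The window of Per3 held 2 copies of the D-box, which 0.819% of windows held. The core of a CREB site was found before the second start of Per1 only, 132 bases upstream, and in 6.47% of all windows. The full CREB site, spelled TGACGTCA and overlapping its core, was in none of these windows and in 1.55% of all. Dbp and Nr1d2 had none of the 5 motifs in these letters, and an annotated exon covered 159 of the 250 bases of the Dbp window. The shares count single windows, while the counts above are of genes. These are matches of letters and not measured sites.

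In GENCODE vM21 (GRCm38) the 9 genes lie on 8 chromosomes, so none but Per1 and Nr1d1 share one. Per1 (ENSMUSG00000020893) spans chr11:69095217-69109960 on the plus strand and Nr1d1 (ENSMUSG00000020889) chr11:98767932-98775333 on the minus strand. Per2 (ENSMUSG00000055866) lies at chr1:91415982-91459324 on the minus strand and Per3 (ENSMUSG00000028957) at chr4:151003652-151044665 on the minus strand. Cry1 (ENSMUSG00000020038) lies at chr10:85131700-85185064 and Cry2 (ENSMUSG00000068742) at chr2:92403646-92434043, both on the minus strand. The other genes are Dbp (ENSMUSG00000059824) at chr7:45705088-45710203 on the plus strand, Tef (ENSMUSG00000022389) at chr15:81802421-81826863 on the plus strand and Nr1d2 (ENSMUSG00000021775) at chr14:18204054-18239127 on the minus strand.

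Spots were grouped by expression into areas named from marker genes, with the clock genes and the gene lists used below kept out of the grouping. Of 13452 spots kept, 402 stayed unnamed in the grouping of the whole section. Within cortex, groups of 557, 330, 261 and 206 spots had no layer name. Within hippocampus, groups of 252, 239, 106 and 76 spots had no field name, and all these are left out of the layers and fields below. No group of spots matched the suprachiasmatic nucleus, the brain's master clock. The hypothalamus of HF replicate 2 held 2059 CPM of Avp, against 2.74 CPM or less in the other sections, and 67.0 CPM of Rgs16 against 26.7, 33.2 and 32.3 CPM. Of 9 suprachiasmatic markers with a feature, HF replicate 2 had the highest value for 5 (Avp, Rgs16, Vipr2, Six6 and Prok2), the lowest for 2 (Grp and Lhx1) and a middle one for 2 (Vip and Rasl11b). One cortical group of 631 spots was led by Dio2, Ndnf and Reln and was counted as cortex. The 4 sections shared 2474 spot barcodes, which come from the array's common set.

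The level of each gene was first set against the other areas, over 16 areas that had at least 10 spots in every section. Of the 144 pairs of gene and area, 58 were called, which is 40.3%, beside 34.5% of all pairs of feature and area. Between 18.8% and 46.3% of features were called per area, so areas differ in most kinds of gene and the count says little of the clock genes as a set. A pair was called where edgeR gave an adjusted p under 0.05 and at least a 1.2-fold ratio to the mean of the other areas.

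The 3 Period genes shared their pattern over the brain only in part. Ependyma and dentate gyrus stood among the 4 highest means of each, while CA1 was highest for Per1 and Per2 and lowest for Per3. Per1 was highest in CA1, the striatum, the ependyma and the dentate gyrus, with means of 78.4 to 87.6 CPM, and lowest in CA2-3 with 43.1 ± 9.12 CPM (SD, n = 4). The CA1 value of Per1 was 0.57 ± 0.11 (SE) above the other areas on the log2 scale (adjusted p = 1.4e-05), and that of CA2-3 was lower, with -0.44 ± 0.12 (adjusted p = 0.002). Per2 was likewise highest in CA1, with 38.4, 22.0, 87.9 and 79.3 CPM in MF replicates 1 and 2 and HF replicates 1 and 2. CA1 ranked from 1 to 12 among the 16 areas of a section for Per2, the rank of 12 being that of MF replicate 2 with 12 UMIs. Per2 was lowest in the thalamus in the mean, with 15.7 to 22.5 CPM, and its ratio to the other areas there was -0.84 ± 0.09 on the log2 scale (adjusted p = 6.5e-14). Per3 departed from the other 2 genes in CA1, its lowest mean of the 16 areas with 25.1 ± 8.33 CPM. In the dentate gyrus it had 67.3 ± 3.24 CPM. Ependyma, dentate gyrus and layer 1 with meninges held the top 3 ranks of Per3 in every section, and all 4 values in layer 1 lay above those in the hypothalamus, the next area.

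The 2 Cryptochrome genes also differed in where they were high. Cry1 was highest in the ependyma of each section, with 39.7 ± 7.10 CPM (SD, n = 4), and no section's ependyma overlapped with the next area, the habenula at 27.1 ± 2.85 CPM. It was lowest in CA2-3 with 8.04 ± 2.78 CPM, a log2 ratio of -1.09 ± 0.21 to the other areas (adjusted p = 1e-05), from as few as 3 UMIs in MF replicate 2. Cry2 was highest in the dentate gyrus in every section, with 156 ± 17.6 CPM, and lowest in the white matter in every section, with 66.7 ± 9.23 CPM. Its log2 ratios to the other areas were 0.62 ± 0.07 in the dentate gyrus (adjusted p = 2.2e-12) and -0.61 ± 0.06 in the white matter (adjusted p = 5.6e-15). Layers 4 and 2-3 came next for Cry2, at means of 132 and 126 CPM.

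Among the output factors, Dbp was highest in the striatum with 165 to 201 CPM and lowest in CA2-3 in every section with 53.8 to 69.6 CPM. The log2 ratio of Dbp to the other areas was -0.72 ± 0.10 in CA2-3 (adjusted p = 2.5e-09) and 0.49 ± 0.09 in CA1, which borders it (adjusted p = 1.9e-06). Tef, its relative, varied least, with 1.71-fold between the highest and the lowest mean, and was highest in the dentate gyrus (258 ± 29.4 CPM) and the striatum (256 ± 29.8 CPM). For Nr1d1 the highest means were in layer 4 (147 ± 46.1 CPM) and the thalamus (132 ± 17.4 CPM), and the lowest was in the white matter (66.9 ± 10.6 CPM). These means pool both diets, whose log2 fold change of HF over MF for Nr1d1 was 0.78 in layer 4 and 0.30 in the thalamus. The first place of layer 4 is therefore not a value of the control sections alone. Nr1d2, encoding the related receptor, was highest in the habenula, thalamus, ependyma and reticular thalamic nucleus, at 126 to 134 CPM, and lowest in CA2-3 at 64.6 ± 5.97 CPM. In the habenula the pair parted, with log2 ratios to the other areas of -0.46 ± 0.09 for Nr1d1 (adjusted p = 1.3e-05) and 0.33 ± 0.06 for Nr1d2 (adjusted p = 7.4e-06).

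The ranges of neighbours in these orders mostly overlapped. Each range pools the 4 sections and both diets and does not pair areas within a section. An overlap thus does not show that 2 areas were alike, since Cry2 was highest in the dentate gyrus in every section. Sorted by mean, 15 of 15 neighbouring pairs of areas overlapped in their 4 values for Per1, Per2, Cry2, Tef, Nr1d1 and Nr1d2, and 14 of 15 for Per3, Cry1 and Dbp. The highest and the lowest area of each order did not overlap, except for Per2, whose lowest value in CA1 (22.0 CPM) lay below its highest in the thalamus (22.5 CPM). The means of the ends differed 2.03-fold for Per1, 2.98-fold for Per2 and Per3, 4.94-fold for Cry1 and 3.01-fold for Dbp.

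**Figure D1:**
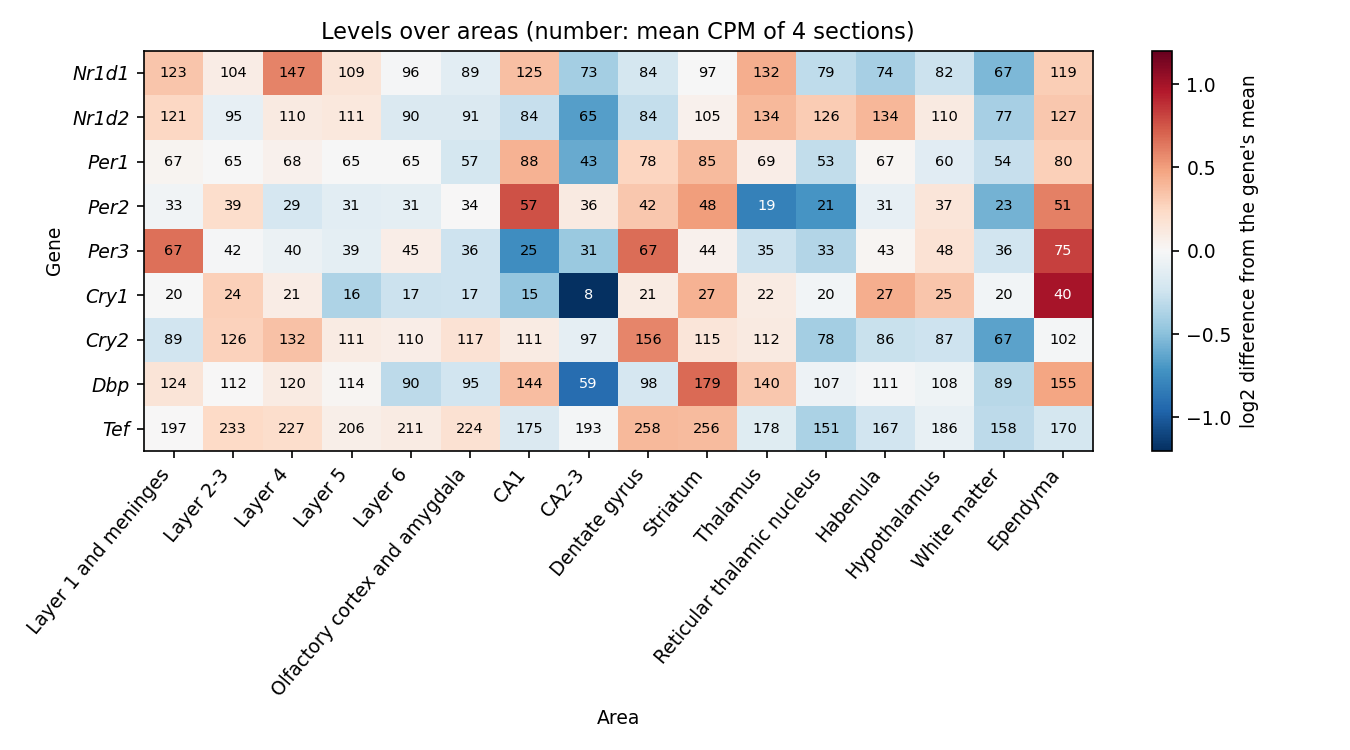
Mean level of the 9 genes (rows) in 16 areas (columns). The number is the mean CPM of the 4 sections and the colour is its log2 difference from the gene's mean over areas; CA2-3 is low for Cry1, Dbp, Per1 and Nr1d2, while Per2 is high in CA1 and low in the thalamus.

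Profiles over the 16 areas were compared by Pearson's r on the mean log2(CPM + 1) of the 4 sections, as a description across areas that share libraries and anatomy. Within the set, Per1 and Dbp were the closest pair with r = 0.83, followed by Cry2 and Tef with r = 0.81. Nr1d1 was closer to Arntl (r = 0.81), whose transcription its protein represses, than to its relative Nr1d2 (r = 0.42). Per2 had r = 0.55 with Per1, 0.15 with Cry1 and -0.23 with Nr1d2. Over 10244 features with a mean of at least 10 CPM, the features nearest to Per1 were Eapp (r = 0.88), Dph7 (0.84) and Dbp (0.83). Those nearest to Per2 were Med28, Chid1 and Clip4, with r from 0.91 to 0.92. For Dbp they were Per1 (0.83), Hmgb3 and Cldn12 (both 0.78), and for Nr1d1 Arntl (0.81), Ergic1 and Crlf2 (both 0.78). Those of Tef were Siah1b, Dpf1 and Jade3, with r from 0.90 to 0.91, and those of Cry2 were Tmem170b, Nova2 and Pcdha11, with r of 0.91.

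Moran's I, which measures how alike neighbouring spots are, was deposited for each feature of a section. Nr1d1 stood between the top 12.5% and the top 21.6% of features in every section, with I from 0.0539 to 0.0765. Cry1 stood near the middle, between 49.4% and 62.6% from the top, with I of 0.0137 or less. Per2 and Tef each had 1 section apart, HF replicate 1, where I was 0.00751 for Per2 and 0.0123 for Tef against at least 0.0246 and 0.0349 in the other sections. Nr1d2 was low in HF replicate 2, at 0.0284 against at least 0.0627. HF replicate 1 was the shallowest section, and the part of depth in these values was not tested.

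HF was then compared with MF. Over the whole section, 5 genes lay higher in both HF sections than in both MF sections and 1 lower, while 3 overlapped. None was called, and edgeR called 0 of 14971 features (0%), with 1020 at an unadjusted p under 0.05. DESeq2 called 0 of the 9 genes and 23 of the 14971 features. In such sums fewer cells of a type and less RNA per cell cannot be told apart. The share of all features with both HF sections above both MF sections was 21.8%, and below them 17.9%.

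The Period genes were read first. Per1 was counted at 59.2 and 56.3 CPM in MF replicates 1 and 2 and at 74.4 and 73.6 CPM in HF replicates 1 and 2. Both HF sections lay above both MF sections, and the log2 fold change of HF over MF was 0.35 ± 0.07 (SE, adjusted p = 0.70). Per2 was counted at 25.5 and 26.5 CPM in MF and at 32.7 and 38.5 CPM in HF, again without overlap, with a log2 fold change of 0.45 ± 0.10 (adjusted p = 0.70). Per3 was counted at 41.8 and 42.1 CPM in MF and at 44.0 and 40.6 CPM in HF. The groups overlapped for Per3, and the log2 fold change was 0.00 ± 0.08.

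Cry1 was the only 1 of the 9 genes with HF below MF in the whole section. It was counted at 23.3 and 23.1 CPM in MF and at 19.1 and 19.7 CPM in HF, a log2 fold change of -0.26 ± 0.08 (adjusted p = 0.70). Cry2 was counted at 95.2 and 100.4 CPM in MF and at 115 and 108 CPM in HF, a log2 fold change of 0.18 ± 0.07 (adjusted p = 0.72). Both Cryptochrome genes thus had groups that did not overlap, in opposite directions.

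Nr1d1 was counted at 90.3 and 96.2 CPM in MF and at 107 and 121 CPM in HF, a log2 fold change of 0.28 ± 0.09 (adjusted p = 0.70). Nr1d2 was counted at 98.6 and 102 CPM in MF and at 119 and 115 CPM in HF, a log2 fold change of 0.22 ± 0.07 (adjusted p = 0.70). Neither receptor gene's groups overlapped. Dbp was counted at 111 and 116 CPM in MF and at 113 and 130.4 CPM in HF. Tef was counted at 198 and 187 CPM in MF and at 187 and 215 CPM in HF. Both PAR bZIP genes overlapped between the diets, with log2 fold changes of 0.09 ± 0.10 and 0.06 ± 0.10. Over the alternative settings, the whole-section log2 fold change ran from 0.31 to 0.39 for Per1 and from 0.31 to 0.57 for Per2. That of Nr1d1 ran from 0.17 to 0.38.

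**Figure D2:**
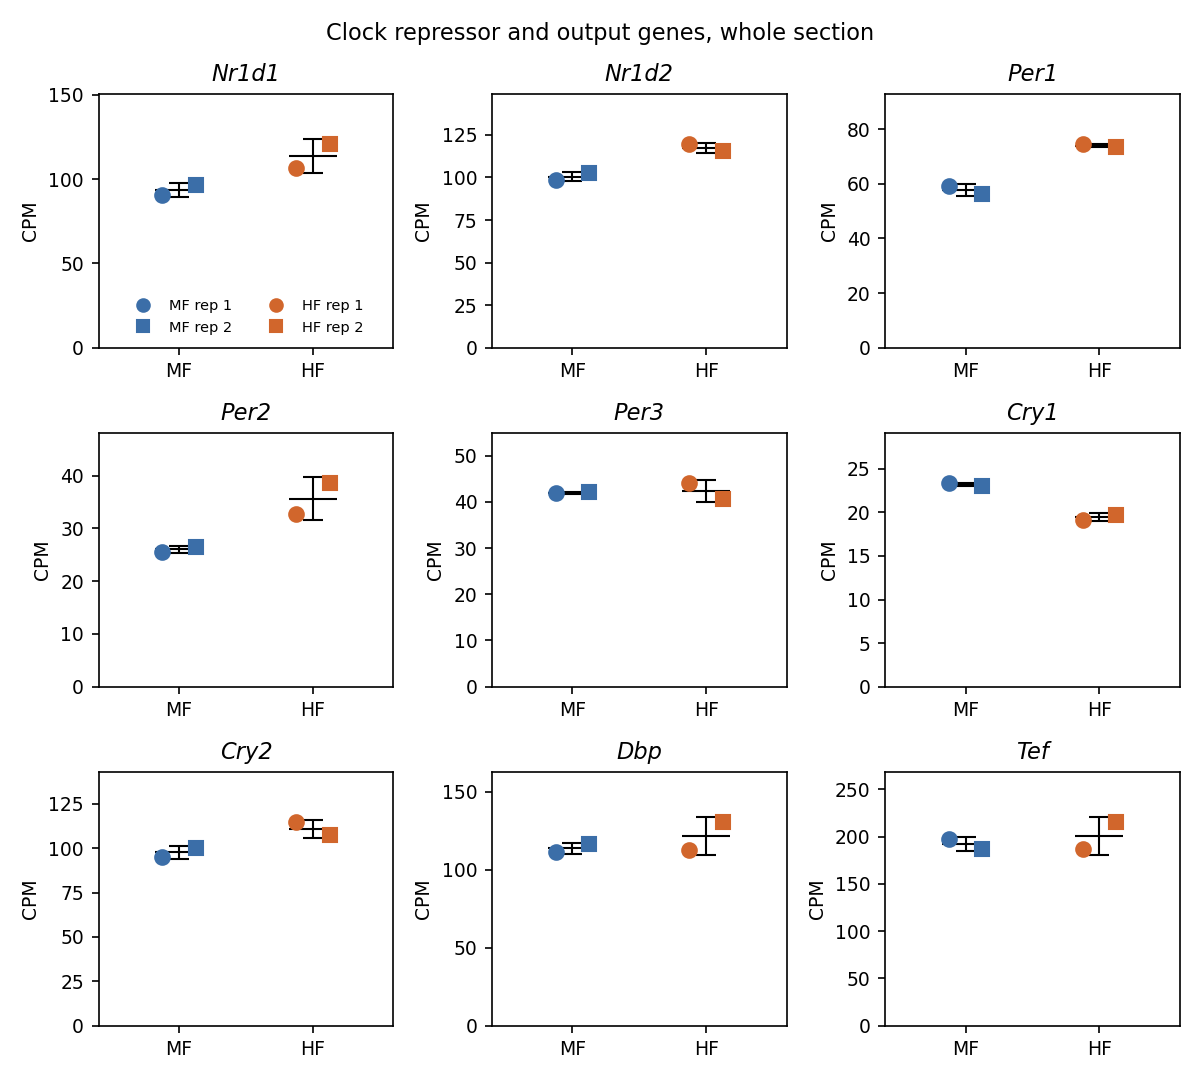
Whole-section level in CPM (vertical axes, each from 0) of the 9 genes in the MF (blue) and HF (orange) sections, with circles for replicate 1, squares for replicate 2, and bars for the mean and SD of 2 sections. Per1, Per2, Cry2, Nr1d1 and Nr1d2 lie higher in both HF sections, Cry1 lies lower, and Per3, Dbp and Tef overlap.

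By area, Per1, Per2 and Nr1d1 rose in HF in layers 2-3 and in layer 4, Per1 also over layers 4 to 6 together and Per2 in CA1. These made 8 called pairs of 125 tested pairs of gene and area (6.4%), all higher in HF, over 14 areas that overlap in part (layers and cortex, hippocampal fields and hippocampus). Of all pairs of feature and area, 0.129% were called and 0.0534% called higher. The 9 genes were chosen with earlier results of these data known, so the gap between these shares is no test of the set. Layer 4 is part of layers 4 to 6, so its spots enter the Per1 calls of both. The other 6 genes were called in no area. DESeq2 called 3 pairs. Of the 8, it kept Nr1d1 in layer 4 (adjusted p = 0.0204) and Per1 over layers 4 to 6 (0.0141), and gave no adjusted p for Per2 in layer 4. The others missed its threshold, and it called none of the 9 genes in layers 2-3 or CA1. Per2 in layers 2-3 had an adjusted p of 0.0629 in DESeq2.

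In layers 2-3, where 0.45% of 11119 features were called and 0.171% called higher, Per2 was counted at 25.2 and 23.3 CPM in MF and at 54.3 and 53.1 CPM in HF, from 39 to 109 UMIs. The log2 fold change was 1.14 ± 0.18 (SE, adjusted p = 0.0003), and both HF values stood far above both MF values. Per1 was counted at 52.6 and 46.6 CPM in MF and at 75.5 and 86.2 CPM in HF, a log2 fold change of 0.71 ± 0.15 (adjusted p = 0.0128). Nr1d1 was counted at 85.6 and 73.0 CPM in MF and at 108 and 148 CPM in HF, a log2 fold change of 0.72 ± 0.14 (adjusted p = 0.00499). HF replicate 2 stood well above HF replicate 1 for Nr1d1. Without that section the log2 fold change of Nr1d1 was 0.42 (adjusted p = 0.57) and that of Per1 0.58 (adjusted p = 0.39). The call of Per1 was also lost without MF replicate 1 (adjusted p = 0.0779) and without MF replicate 2 (0.141), and that of Nr1d1 without MF replicate 2 (0.08), while Per2 was still called when any 1 section was left out. Among the 19 features called higher, Per2 had the 8th largest change, Nr1d1 the 12th and Per1 the 13th. Nr1d2 (0.44 ± 0.13, adjusted p = 0.20) lay above MF in both HF sections without a call, and Cry1, Cry2, Per3, Dbp and Tef overlapped between the diets here.

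In layer 4, where 0.297% of 10792 features were called and 0.139% called higher, the same 3 genes were called. Nr1d1 was counted at 106 and 114 CPM in MF and at 164 and 205 CPM in HF, a log2 fold change of 0.78 ± 0.12 (adjusted p = 0.00149). Per2 was counted at 18.5 and 18.2 CPM in MF and at 40.4 and 40.0 CPM in HF, a log2 fold change of 1.14 ± 0.21 (adjusted p = 0.00736), the lowest sum being 27 UMIs in MF replicate 2. Per1 was counted at 48.6 and 49.9 CPM in MF and at 90.4 and 82.4 CPM in HF, a log2 fold change of 0.82 ± 0.15 (adjusted p = 0.00857). No MF value of these 3 genes reached an HF value. Without MF replicate 1, the deepest section, none of the 3 was called, with log2 fold changes of 1.15 for Per2 (adjusted p = 0.20), 0.80 for Per1 (0.335) and 0.72 for Nr1d1 (0.174). Cry1 had 24.8 and 24.3 CPM in MF and 12.9 and 23.6 CPM in HF, the low value resting on 16 UMIs, with a log2 fold change of -0.37 ± 0.25 (adjusted p = 0.81).

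Deeper layers gave smaller differences in the same direction. Per1 was counted at 56.5 and 46.7 CPM in MF and at 84.7 and 72.5 CPM in HF in layer 5, and at 53.7 and 54.2 CPM against 78.3 and 75.5 CPM in layer 6. Its log2 fold changes there were 0.55 ± 0.14 and 0.52 ± 0.12, with no call in either layer (adjusted p = 0.27 and 0.24). Summed over layers 4 to 6, where 0.0936% of 12825 features were called and 0.0624% called higher, Per1 was called with 0.61 ± 0.10 (adjusted p = 0.0291). That call was lost without MF replicate 1 (adjusted p = 0.0644) and without MF replicate 2 (0.158). Per2 had 0.64 ± 0.12 (adjusted p = 0.0752) and Nr1d1 0.46 ± 0.10 (adjusted p = 0.17) in that sum.

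In CA1, where 0.0466% of 8592 features were called and 0.0233% called higher, Per2 was counted at 38.4 and 22.0 CPM in MF and at 87.9 and 79.3 CPM in HF, from 47, 12, 37 and 63 UMIs. The log2 fold change of 1.32 ± 0.25 (adjusted p = 0.0237) was the largest of any of these genes among the areas tested. That call was lost without HF replicate 2. None of the 9 genes was called in CA1 with DESeq2 or with spots thinned to 5000 UMIs. Per1 in CA1 overlapped between the diets, with 74.4 and 89.8 CPM in MF and 85.5 and 101 CPM in HF. Nr1d1 was counted there at 98.1 and 93.4 CPM in MF and at 131 and 179 CPM in HF, with 0.73 ± 0.18 (adjusted p = 0.20). Cry1 had 21.3 and 16.5 CPM in MF and 14.3 and 6.29 CPM in HF, from as few as 5 UMIs, with -1.09 ± 0.52 (adjusted p = 0.84). In the dentate gyrus the same genes differed little, with log2 fold changes of 0.01 ± 0.20 for Per1, 0.28 ± 0.27 for Per2 and -0.16 ± 0.20 for Nr1d1.

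**Figure D3:**
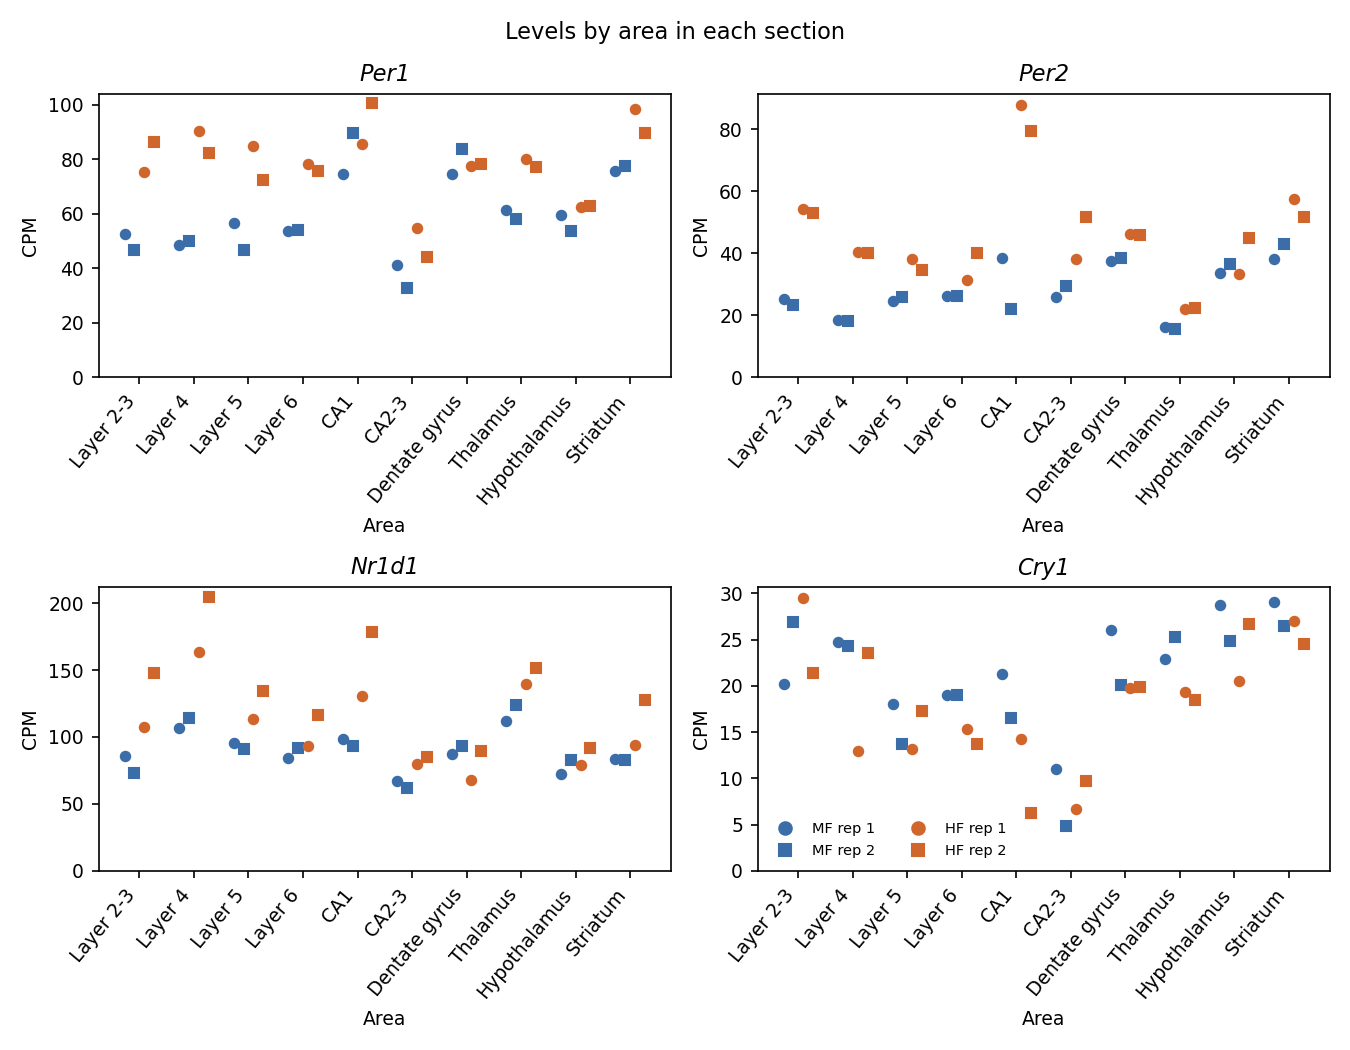
Levels in CPM (vertical axes, each from 0) of Per1, Per2, Nr1d1 and Cry1 in 10 areas, with MF sections in blue, HF sections in orange, circles for replicate 1 and squares for replicate 2. The HF points of Per1, Per2 and Nr1d1 lie above the MF points in layers 2-3 and 4, those of Per2 also in CA1, and Per1 and Nr1d1 overlap in the dentate gyrus.

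None of the 9 genes was called in the thalamus, hypothalamus or striatum. Of all features, 0% were called by edgeR in the thalamus (958 at an unadjusted p under 0.05) and in the hypothalamus (865), and 0.0525% in the striatum. Per2 was counted at 16.1 and 15.7 CPM in MF and at 22.2 and 22.5 CPM in HF in the thalamus, a log2 fold change of 0.48 ± 0.13 (adjusted p = 0.57). In the hypothalamus Per2 overlapped, with 33.6 and 36.5 CPM in MF and 33.3 and 45.0 CPM in HF, and the log2 fold changes of all 9 genes lay between -0.20 and 0.22. HF replicate 2, the section with high Avp, held the higher HF value of every gene but Per3 and Cry2 in the hypothalamus, and the part of the section's position in these values was not tested. Spot groups pooled in these regions also differed by section. In MF replicates 1 and 2 and HF replicates 1 and 2, a hypothalamic group led by Agrp had 230, 117, 101 and 18 spots. In that order, thalamic groups led by Gbx2 had 304, 191, 68 and 288 spots, and 99, 150, 364 and 98 spots. The part of this make-up in the HF and MF values was not tested. Striatal Dbp had 165 and 167 CPM in MF and 184 and 201 CPM in HF, a log2 fold change of 0.23 ± 0.11 (adjusted p = 0.77).

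Whether the difference between the diets itself changed with area was tested over cortex, hippocampus, thalamus, hypothalamus and striatum. None of the 9 genes was called by edgeR, against 0.0589% of 13591 features, with 983 features at an unadjusted p under 0.05. The smallest adjusted p-values in edgeR were 0.36 for Per1 and 0.57 for Per2. The log2 fold change of the hypothalamus minus that of cortex was -0.39 for Per1 and -0.41 for Per2. Layers and hippocampal fields were not in this test, so whether the differences in layers 2-3 or CA1 depart from those of other areas was not tested.

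The genes were finally set in the usual daily order of their peaks. From early to late, the whole-section log2 fold changes were 0.28 for Nr1d1, 0.09 for Dbp, 0.00 for Per3, 0.06 for Tef, 0.22 for Nr1d2, 0.35 for Per1, 0.45 for Per2, 0.18 for Cry2 and -0.26 for Cry1. The activators at the opposite phase had -0.02 for Arntl, -0.06 for Npas2 and -0.00 for Clock. No single direction thus held along the order, since Nr1d1 and the later genes Per1 and Per2 had the higher values in HF and among those whose peaks fall between them Dbp, Tef and Per3 had values near 0 and Nr1d2 had 0.22.

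The same order was read over 13 areas, leaving out the sum over layers 4 to 6. Both HF sections lay above both MF sections in 12 areas for Per2, in 11 each for Per1, Nr1d1 and Nr1d2, in 9 for Cry2 and in 4 each for Dbp and Tef. Per3 did so in 0 areas. Cry1 had both HF sections below both MF sections in 8 areas, and its fold change was below 0 in 11 of the 12 areas in which it could be tested. For all features, the share with HF above was 16.3% to 21.1% per area and the share with HF below 15% to 20.5%. Arntl lay above in 1 area and below in 3, and it was lowest against MF in CA1, with 90.0 and 91.6 CPM in MF and 59.4 and 75.5 CPM in HF (-0.38 ± 0.21, adjusted p = 0.88). These areas come from the same 4 sections, so they are not separate observations of the diets.

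**Figure D4:**
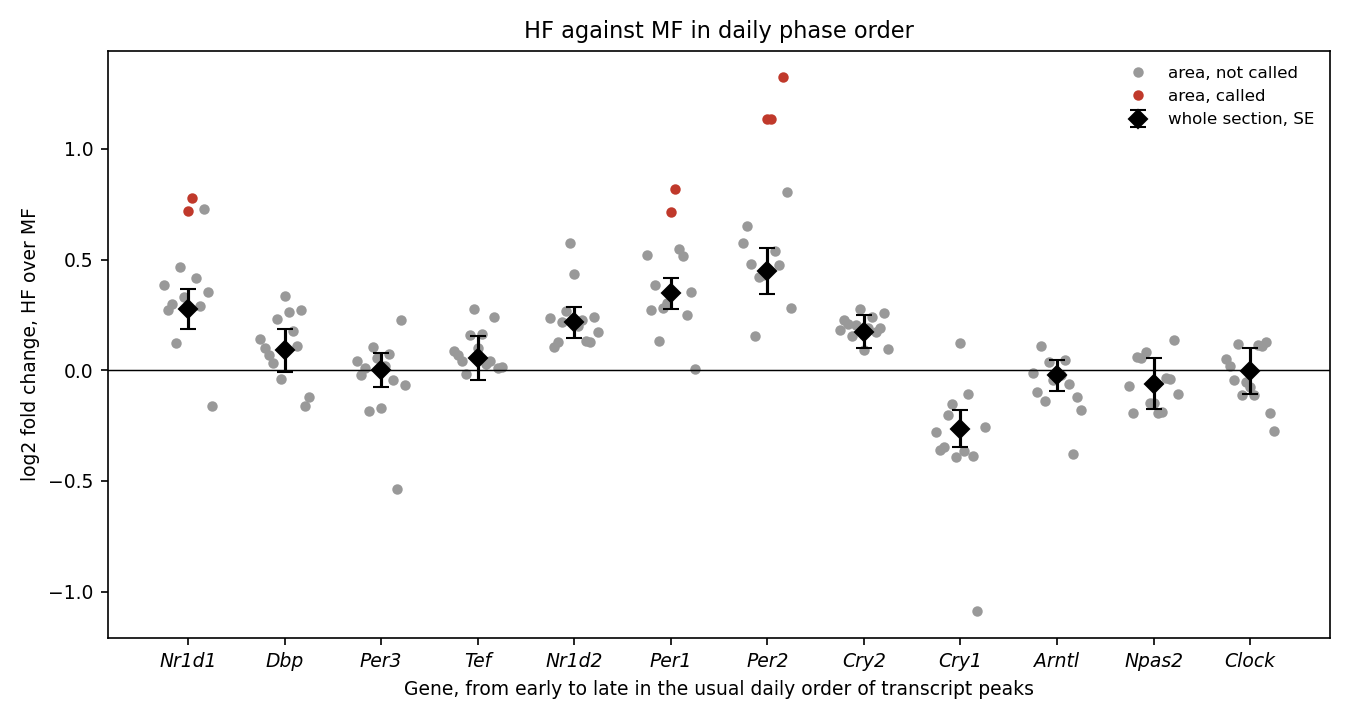
Log2 fold change of HF over MF (vertical axis) of the 9 genes and the activators Arntl, Npas2 and Clock, in the usual daily order of their peaks (horizontal axis). Diamonds with SE bars are whole sections, grey points are 13 areas, and red points are areas where the gene was called. Cry1 lies below 0 in the whole section and in 11 of 12 areas, beside the raised Per2 and Per1.

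Ratios within a section remove differences in depth. Per2 was counted 1.09 and 1.15 times as often as Cry1 in MF and 1.71 and 1.95 times in HF over the whole section. The ratio lay higher in both HF sections than in both MF sections in 12 of 13 areas, with CA2-3, where Cry1 had 3 to 20 UMIs, as the exception. In layer 4 it was 0.745 and 0.75 in MF and 3.13 and 1.70 in HF. The ratio of Nr1d1 to Arntl, a repressor to its target, was 1.65 and 1.81 in MF and 1.95 and 2.31 in HF over the whole section and did not overlap in 10 of 13 areas. That of Per3 to Arntl overlapped in 11 of 13 areas and lay below MF in the other 2. These ratios were not tested and follow from the levels above.

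**Figure D5:**
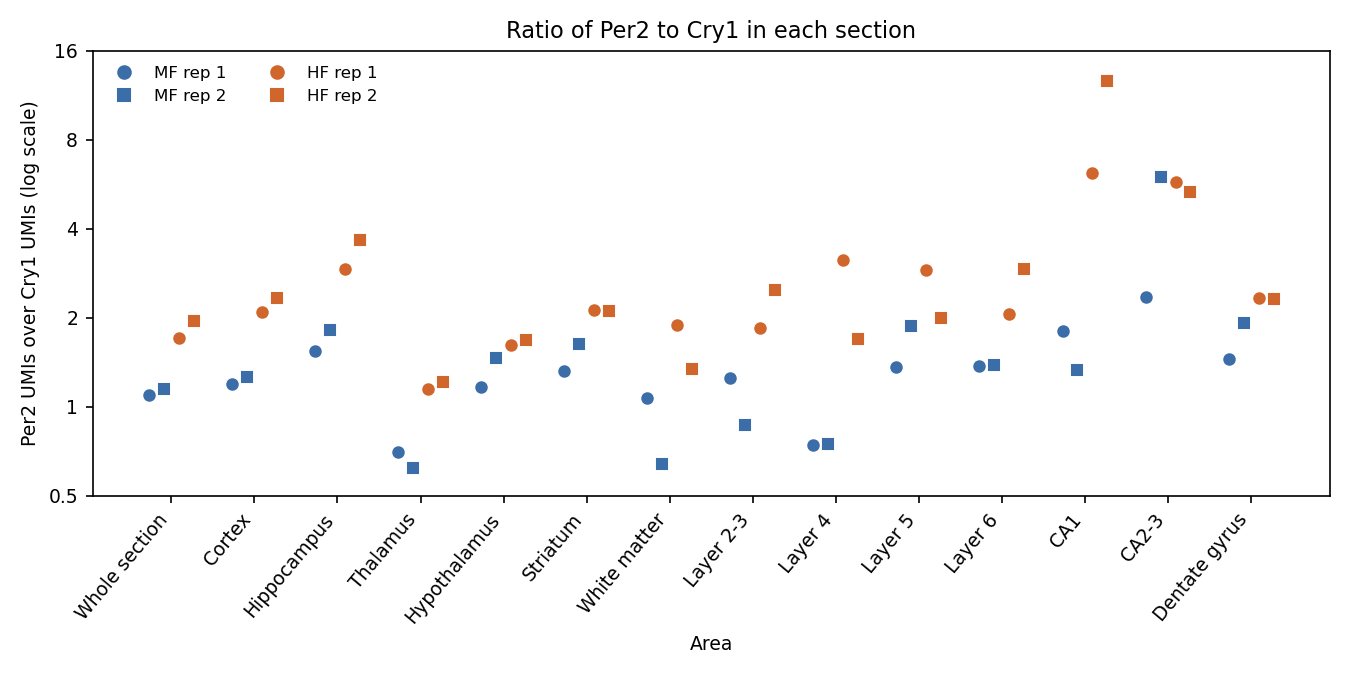
Ratio of Per2 UMIs to Cry1 UMIs (vertical axis, log scale) in the whole section and 13 areas, with MF sections in blue, HF sections in orange, circles for replicate 1 and squares for replicate 2. The HF sections lie above the MF sections in each column except CA2-3.

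Other clock genes were read from a list of 21 activators and modifiers. Over the whole section 21 were tested and none was called, with a median log2 fold change of 0.00 beside 0.00 for all features. Of 18 tested, 1 was called in each of layers 2-3, 4 and 5, Bhlhe40 (DEC1), a repressor that competes for E-boxes and responds to neuronal activity. The share of all features called higher in layer 5 was 0.062%, and those of the other layers are given above. Bhlhe40 was counted at 103 and 127 CPM in MF and at 195 and 237 CPM in HF in layers 2-3, a log2 fold change of 0.97 ± 0.12 (adjusted p = 1.5e-05). In layer 4 it was counted at 128 and 109 CPM in MF and at 184 and 198 CPM in HF (0.68 ± 0.12, adjusted p = 0.00471). Npas2 and Clock overlapped between the diets in layers 2-3, with log2 fold changes of -0.15 ± 0.14 and -0.07 ± 0.17, and Arntl had -0.02 ± 0.15.

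Some genes switched on by neuronal activity rose in the areas where Per1 and Per2 did. They come from a list chosen with earlier results of these data known. Of 24 such genes, 8 of 23 tested were called higher in layers 2-3, 9 of 22 in layer 4, 7 of 23 in layers 4 to 6 and 1 of 16 in CA1, and none was called lower in any area. Some were also called higher in areas where none of the 9 clock genes was. These were 6 of 24 in cortex (0.0506% of all features called higher), 5 of 22 in layer 5 (0.062%), 7 of 23 in layer 6 (0.0679%), 5 of 22 in the hippocampus (0.0404%) and 5 of 16 in CA2-3 (0.124%). Egr1 alone was called in the striatum (0.00876%), white matter (0.00823%) and dentate gyrus (0.0217%). DESeq2 called 3 in layers 2-3, 3 in layer 4, 4 over layers 4 to 6 and 0 in CA1. Their median log2 fold change was 0.60 in layers 2-3 and 0.79 in layer 4, beside 0.00 for all features in each. In layers 2-3 the called genes were Egr1, Egr2, Fos, Junb, Nr4a1, Nr4a3, Arc and Dusp6, and in layer 4 Egr1, Egr4, Fos, Junb, Nr4a1, Nr4a3, Arc, Dusp1 and Dusp6. Over layers 4 to 6 they were Egr1, Egr4, Fos, Nr4a1, Nr4a3, Arc and Dusp6, and in CA1 Egr1. Egr1, an immediate early transcription factor, was counted at 101 and 105 CPM in MF and at 388 and 655 CPM in HF in layers 2-3, a log2 fold change of 2.39 ± 0.15 (adjusted p = 1.3e-13). Fos had 4.71 and 4.19 CPM in MF and 20.3 and 16.1 CPM in HF there, from as few as 7 UMIs, and Arc, a synaptic effector, 46.2 and 30.5 CPM in MF and 154 and 66.2 CPM in HF. The log2 fold change of Egr1 was 2.70 ± 0.17 in layer 4 and 2.59 ± 0.23 in CA1, more than that of any clock gene there. Leaving out each section in turn, 6 to 10 of the activity genes were called higher in layers 2-3 or layer 4. Without HF replicate 1, 2 were called lower in layer 4.

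Genes induced by glucocorticoids were read from a list of 18. None was called higher in any area, and 1, Mt2, a metallothionein, was called lower in layers 2-3, 4, 5 and 6, CA1, CA2-3, the hippocampus and the striatum, beside 0.0758% of all pairs of feature and area called lower. The median of the list was -0.23 in layers 2-3, -0.19 in layer 4, -0.01 in CA1 and 0.14 in the dentate gyrus. Mt2 was counted at 468 and 347 CPM in MF and at 303 and 182 CPM in HF in layers 2-3, a log2 fold change of -0.80 ± 0.14 (adjusted p = 0.00119). Its values were -0.70 ± 0.14 in layer 4 (adjusted p = 0.017) and -1.11 ± 0.19 in CA1 (adjusted p = 0.00728). Fkbp5, a sensitive glucocorticoid target, had 43.9 and 41.0 CPM in MF and 34.8 and 39.4 CPM in HF over the whole section (-0.20 ± 0.10, adjusted p = 0.73), and Sgk1 overlapped between the diets (0.09 ± 0.10). Of 9 genes linked to body temperature, 7 had a feature and none was called in any area, with a median of -0.12 over the whole section.

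Marker genes of glia were read beside these results. In layers 2-3 the 7 oligodendrocyte markers summed to 7796 and 8091 CPM in MF and 5455 and 4380 CPM in HF, with none at 0. In layer 4 they summed to 9331 and 9236 CPM in MF and 7283 and 5846 CPM in HF, and in CA1 to 11307 and 7356 CPM in MF and 6486 and 6145 CPM in HF. The 7 astrocyte markers summed to 1060 and 905 CPM in MF and 867 and 832 CPM in HF in layers 2-3, to 880.1 and 778 CPM against 732 and 728 CPM in layer 4, and to 653 and 518 CPM against 449 and 443 CPM in CA1. In each of these 3 areas both sums were lower in both HF sections. The 7 microglia markers summed to 475 and 413 CPM in MF and 427 and 383 CPM in HF in layers 2-3, where they overlapped, to 413 and 399 CPM against 365 and 299 CPM in layer 4, where they did not, and to 263 and 253 CPM against 314 and 200.2 CPM in CA1, where they overlapped. The 6 markers of vessels that had a feature overlapped in all 3 areas. Markers of other regions were also called lower in HF in these areas. Pmch, a hypothalamus marker, had log2 fold changes of -3.37 ± 0.37 in layers 2-3, -2.81 ± 0.40 in layer 4 and -3.42 ± 0.52 in CA1. Prkcd, a thalamus marker, had -1.07 ± 0.18 in layers 2-3 and -0.85 ± 0.17 in layer 4. Avp, another hypothalamus marker, was called higher in cortex as a whole (3.55 ± 0.31). The part of all these markers, and of the position of the sections, in the results for the clock genes was not tested.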

How the data were processed

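Visium-FFPE libraries of 4 coronal brain sections were used. The authors deposited raw UMI counts per probed gene and spot, made with Space Ranger version 2.0.0 on mm10, a score per feature (Moran's I over spots) and, per the file headers, the array row and column of each spot (another kind of value, from which no printed value was computed). Spots under tissue with at least 500 UMIs and 250 genes were kept, which removed 18. Areas came from Leiden clustering (leidenalg 0.10.2, igraph 0.11.9, scikit-learn 1.9.0, resolution 1) of 2000 variable genes, 30 principal components and 20 neighbours, with 79 genes kept out (the clock genes, the gene lists, mitochondrial genes and Xist). It gave 25 clusters, and cortex and hippocampus were clustered again. A cluster was named where at least 3 markers of an area stood among its 50 leading genes and no other area had more among the 10 leading genes. By this rule 1 cluster of the whole section, 4 within cortex and 4 within hippocampus stayed unnamed. Doublets do not apply to spots.

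UMI counts were summed per section and area, since spots are not replicates, and for that reason the rank-sum test over spots that the methods name was not used. edgeR 4.0.16 (quasi-likelihood test, TMM, filterByExpr, R 4.3.3) compared HF with MF, each area with the mean of the other areas (section as a block), and the area-by-diet terms. A gene was called with an adjusted p under 0.05 (Benjamini-Hochberg over all features tested) and at least 1.2-fold. Scripts were tested on simulated data. A permutation test of 2 against 2 sections cannot give a two-sided p below 0.333. Shares of non-overlapping features were counted over features with at least 10 UMIs in at least 2 sections.

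Genes named were the 9 members, Arntl, Npas2 and Clock, listed genes called in an area where a member was, Egr1, Fos, Arc, Fkbp5 and Sgk1, and the 3 features nearest in profile to each of 6 members. Some markers of areas were named too, Pmch and Prkcd after the results were seen. The 9 members and the lists were chosen with earlier results of these data known. Alternatives were DESeq2 1.42.0, library size alone, no filter, 5000 UMIs per spot, a replicate block, Leiden resolution 0.5 and leaving out each section.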

Additional observations from a re-analysis of the deposited data

Results flagged for a closer look

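In a few areas the sections separated in a direction opposite to that of the same gene in at least 1 other area. The share of all features that separated was not counted in layer 1 with meninges, ependyma or habenula. In the 13 areas where it was counted, 16.3% to 21.1% of features lay above in HF and 15% to 20.5% below. Whether these areas depart from the others was not tested, except that the area-by-diet terms, which include the hypothalamus, gave no call for Per3 (adjusted p = 0.89 in edgeR). Per3 had no direction that prevailed over areas. It was lower in both HF sections than in both MF sections in the hypothalamus (log2 ratio of the means -0.17, adjusted p = 0.77 in edgeR) and in layer 1 with meninges (-0.17, with 71.7 and 69.5 CPM in MF and 65.6 and 59.5 CPM in HF), and higher in both HF sections in 2 of the 16 areas. The ependyma, an area of 17 to 21 spots per section, had lower HF values for Cry2 (-0.18), Dbp (-0.38) and Tef (-0.11), which lay higher in both HF sections in 9, 5 and 4 areas. Dbp had 161 and 189 CPM in MF and 140.2 and 130.1 CPM in HF there. In the habenula Tef (-0.19) and Nr1d1 (-0.26) were lower in HF. Nr1d1 had 81.0 and 80.2 CPM in MF and 68.2 and 66.4 CPM in HF there, and lay higher in both HF sections in 11 areas.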

How the results depend on the processing

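With 2 sections per diet, the calls between HF and MF depended on the tool, the filter and single sections. Over 14 areas, the 8 called pairs of gene and area became 3 with DESeq2, 14 without the filter, 4 with spots thinned to 5000 UMIs, and 3 to 30 with 1 section left out (3 without MF replicate 1, 30 without HF replicate 1), while all called pairs of feature and area went from 208 to 98, 872, 126, and 146 and 4888. Over the 6 large regions, 0 became 1 with DESeq2, 4 without the filter and 0 to 12 with 1 section left out. Over the whole section 0 stayed 0 in each setting that kept all 4 sections. The fits with 1 HF section left out rest on 1 HF section and called far more features as a whole. Same-numbered sections did not deviate together (r = -0.16 over 14971 features), so the replicate numbers were not taken as pairs. With the replicate block 10 pairs were called, and with the crossed pairing, chosen after seeing the data, 14 (4 over the 6 regions). The whole-section log2 fold change of Per3 turned without the filter (-0.00437), and with 1 section left out those of Per3 (-0.045 without HF replicate 1 to 0.045 without HF replicate 2), Dbp (-0.033 without HF replicate 2 to 0.202 without HF replicate 1) and Tef (-0.066 to 0.165, likewise) turned too. Of 169 values of single genes under an alternative, 140 kept direction and side of the threshold, 20 lost and 5 gained a call and 4 turned. Counts of area levels (39 to 64 of 144, against 58) stayed within 1.5-fold, and no area-by-diet term was called under any setting run. Depth limits Cry1 most, with 3 UMIs in the smallest sum.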
